A study of Ovis aries with 14 samples.

Results

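ZP2, ZP3, ZP4, FIGLA, NOBOX, SOHLH1, SOHLH2, LHX8, NLRP5 and ZAR1 form a set of 10 genes of the oocyte and its zona pellucida, matched by gene name in the deposited tables of sheep ovary RNA. Of the 10, 4 were listed by name in all 3 tables: ZP2 (ENSOARG00000014472), ZP4 (ENSOARG00000003841), NLRP5 (ENSOARG00000003214) and LHX8 (ENSOARG00000012587). The other 6, ZP3, FIGLA, NOBOX, SOHLH1, SOHLH2 and ZAR1, were not listed by name in any of the 3 tables, so they were not measured here. The fetal table held 16513 genes, of which 12585 had a name, and the adult tables held 15863 and 16074 genes, of which 12205 and 12303 had a name.

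The zona pellucida is the glycoprotein coat that a growing oocyte secretes around itself, and ZP2 and ZP4 are structural proteins of that coat. FIGLA, NOBOX, SOHLH1, SOHLH2 and LHX8 are transcription factors known from mouse knockouts to be needed for the formation or survival of early oocytes. NLRP5 (also called MATER) is part of the subcortical maternal complex, which gathers under the egg membrane, and ZAR1 is an RNA-binding protein stored in the egg, both known in mice as maternal products that the early embryo needs.

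Pregnant Suffolk ewes were injected into muscle with testosterone propionate in cottonseed oil 2 times per week between days 30 and 90 of gestation, with a dose label of 1.2 mg/kg, and their wild-type offspring were studied as fetuses at day 90 and as adults in year 2. The groups were 3 testosterone and 3 control fetuses, and 4 testosterone and 4 control adults; the labels call the controls only "control" and name no vehicle. The series text speaks of 3 adult controls where the labels hold 4, and the dose label also gives a fixed amount that does not go with its mg/kg figure, so the dose is uncertain. RNA came from the whole ovary. How the animals relate to mothers or litters is not stated. Since the ewe was treated, animals that share a mother would not be independent. The p-values given here take each animal as independent and would then be too small. They rest on sample-to-sample spread, which may be partly technical. In whole ovary fewer cells of a type and less RNA per cell cannot be told apart.

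Recovered depth was 24.1 to 28.4 M reads in the fetal libraries and 22.6 to 33.4 M reads in the adult libraries. Some libraries stood apart. Among the fetuses, control 2 had the highest level of the 6 libraries for 22 of 27 listed germ cell and meiosis genes, while it was highest for 19.3% of all genes. Among the adults, OXT, the oxytocin gene that the corpus luteum expresses, had 110586 and 61704 normalized counts in testosterone 4 and 7 and 94884 in control 6, against 22.3 to 80.2 in the other 5 libraries. Adult control 4 was highest for all 7 listed smooth muscle genes and for all 7 listed endothelial genes. It had only 4.72 normalized counts of FSHR, the granulosa cell receptor for follicle-stimulating hormone. Of the 11 listed granulosa genes, control 4 was the lowest library for 5 and the highest for 3. Over all adult genes, control 4 was the lowest library for 21.1% and the highest for 23.4%. The germ cell marker DDX4, an RNA helicase, was detected in every library.

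Prenatal testosterone was not followed by a detectable change in any of the 4 listed genes in the fetal ovary. Each gene's testosterone and control values overlapped, and the libraries of a single group differed from each other by up to 8.32-fold. Values below are normalized counts, which are read numbers scaled by the size factor of each library.

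ZP2 had 2978, 4565 and 6104 normalized counts in testosterone fetuses 1, 2 and 3, against 3395, 3058 and 9956 in control fetuses 1, 2 and 3. Control 3 was the highest and testosterone 1 the lowest, and the groups overlapped. The means were 4549 ± 1563 after testosterone and 5470 ± 3889 in controls (SD, n = 3 each). With limma on log2(value + 1), the change was -0.11 (testosterone minus control, SE 0.44, 95% interval -1.12 to 0.90, adjusted p = 0.953).

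ZP4, the other zona protein measured, had 4689, 7152 and 15278 normalized counts in testosterone fetuses 1, 2 and 3, against 6428, 2601 and 21646 in control fetuses 1, 2 and 3. Control fetuses held both the highest and the lowest value, so the testosterone values lay wholly inside the control range. The highest ZP4 value was 3.26-fold the lowest among testosterone fetuses and 8.32-fold among controls. The log2 change was 0.17 (SE 0.71, 95% interval -1.47 to 1.81, limma adjusted p = 0.954), although the mean was lower after testosterone (9040 ± 5541) than in controls (10225 ± 10074; SD, n = 3 each).

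NLRP5 had 1612, 2417 and 5591 normalized counts in testosterone fetuses 1, 2 and 3, against 2626, 1777 and 6057 in control fetuses 1, 2 and 3. In each group library 3 was well above the other two, and the groups overlapped over nearly their whole range. The log2 change was -0.12 (SE 0.52, 95% interval -1.33 to 1.08, limma adjusted p = 0.953).

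LHX8, the only early oocyte transcription factor among the 10 that was measured, had 5420, 2577 and 5324 normalized counts in testosterone fetuses 1, 2 and 3, against 3666, 4456 and 5087 in control fetuses 1, 2 and 3. Testosterone 2 was the lowest, and library 3 did not stand out as it did for the other genes. The means were 4440 ± 1614 after testosterone and 4403 ± 712 in controls (SD, n = 3 each). Its log2 change of -0.05 had the narrowest interval of the 4 genes, -0.68 to 0.58 (SE 0.27, limma adjusted p = 0.963).

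**Figure D1:**
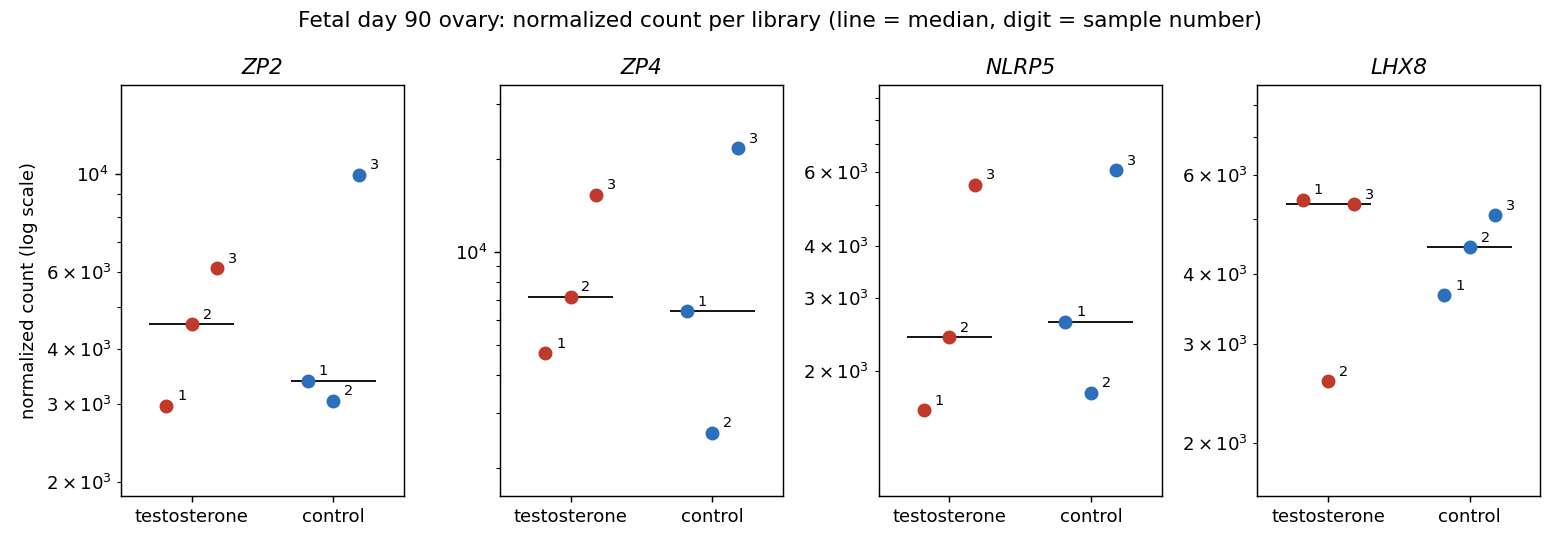
Normalized counts (y axis, log scale) of ZP2, ZP4, NLRP5 and LHX8 in the 3 testosterone and 3 control fetal ovaries, 1 point per library numbered by sample, with a line at each group's median. Library 3 is the highest of its group for ZP2, ZP4 and NLRP5, and the groups overlap in every panel.

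None of the 4 genes was called in the fetal ovary by limma, by edgeR's quasi-likelihood test or by DESeq2, and none had an unadjusted limma p under 0.05. Over all genes tested, limma called 0.0182%, edgeR 0.0242% and DESeq2 1.58%, and 0 of 4 members does not stand apart from those shares. In the authors' deposited table the fetal log2 fold changes were -0.27 for ZP2, -0.18 for ZP4, -0.12 for NLRP5 and 0.012 for LHX8, with adjusted p from 0.938 to 0.996. The sign for ZP4 and for LHX8 thus differed between limma and the authors' deposited table. Leaving out control 3 gave log2 changes of 0.44 for ZP2, 0.97 for ZP4, 0.37 for NLRP5 and 0.06 for LHX8, all above 0. Leaving out control 2 gave -0.41, -0.56, -0.51 and -0.04 for the same genes.

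**Figure D2:**
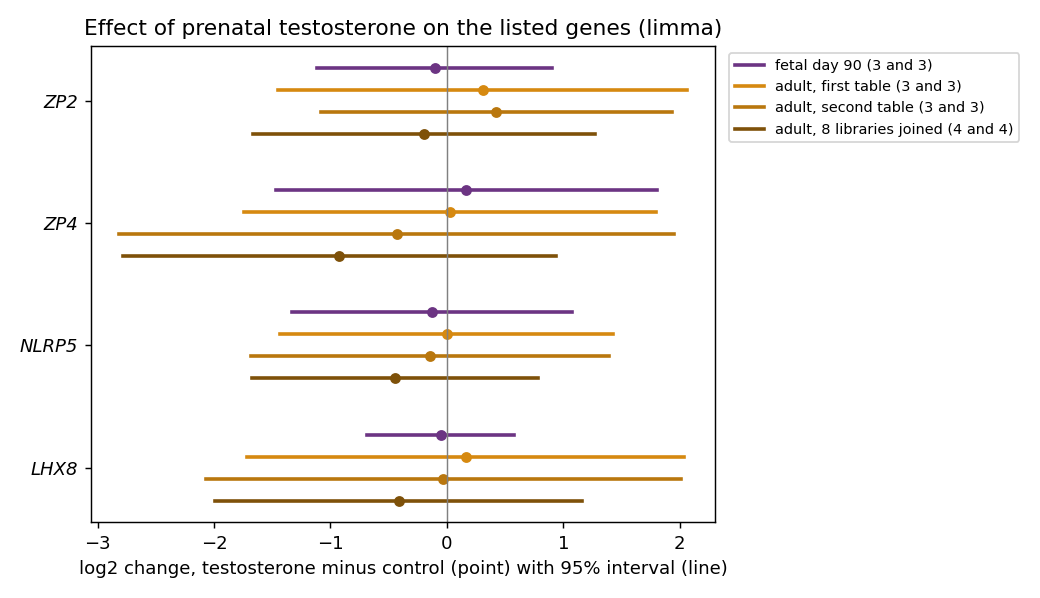
Log2 change of each listed gene, testosterone minus control (x axis; points), with its 95% limma interval (lines), in the fetal table, both adult tables and the 8 adult libraries joined. Every interval includes 0, and the fetal LHX8 interval is the shortest.

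The spread within groups was large for these genes. Within-group SDs on the log2 scale were 1.24 for ZP4, 0.91 for NLRP5, 0.76 for ZP2 and 0.46 for LHX8, against a median of 0.13 over the 5949 fetal genes with a mean of at least 1000 normalized counts. In that order of spread ZP4 stood at place 6, NLRP5 at 19, ZP2 at 26 and LHX8 at 100. Oocyte and germ cell genes under that level, such as BMP15, SYCP1 and DMC1 below, were not ranked. Those 3 genes also differed widely within groups, so the places do not set the members apart from them. Control 3 held the highest value for 3 of the 4 genes, while it was the highest library for 17.7% of all genes.

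Other oocyte genes were set beside the members from fixed lists, to show how far they shared this order of libraries. Control 3 was the highest library for 3 of 4 listed genes of the subcortical maternal complex and lattice, 5 of 12 of the maternal-effect, egg activation and zona processing list and 2 of 6 oocyte-secreted factors and receptors. The 7 listed early oocyte transcription and RNA-binding factors ran otherwise, with control 2 highest for 6 and control 3 for 1. BMP15, an oocyte-secreted growth factor, had 36.3, 58.8 and 147 normalized counts in testosterone fetuses 1, 2 and 3, against 120, 28.4 and 257 in control fetuses 1, 2 and 3. PADI6, needed in mouse oocytes for the cytoplasmic lattices, had 11655, 11196 and 20962 normalized counts in testosterone fetuses, against 13485, 12589 and 26865 in controls, in the same order. ASTL, the protease (ovastacin) that cleaves ZP2 after fertilization in mice, had 188, 252 and 686 normalized counts in testosterone fetuses, against 231, 192 and 907 in controls. In BMP15, PADI6 and ASTL, library 3 was the highest of its group, as for ZP2, ZP4 and NLRP5; PADI6 and BMP15 were named by the rule for list genes and ASTL after its values were seen.

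Many, but not all, genes of the germ cell and meiosis list ran in another order. Of the 27, testosterone 2 was the lowest library for 11, testosterone 3 for 8 and control 3 for 8, and control 3 was highest for 0. SYCP1, a protein of the synaptonemal complex, had 726, 442 and 194 normalized counts in testosterone fetuses 1, 2 and 3, against 491, 903 and 151 in control fetuses 1, 2 and 3. DMC1, the meiotic recombinase, had 78.4, 27.4 and 21.7 normalized counts in testosterone fetuses, against 84.4, 187 and 13.0 in controls. Both were lowest in library 3 of each group, where ZP2, ZP4 and NLRP5 were highest, and highest in control 2, where ZP4 was lowest; both were chosen after their values were seen. REC8, a meiotic cohesin subunit also chosen after its values were seen, did not share this order, with 562, 394 and 783 normalized counts in testosterone fetuses 1, 2 and 3, against 558, 652 and 760 in control fetuses 1, 2 and 3. Over the whole list of 27 germ cell and meiosis genes, summed normalized counts ran from 17130 to 27504 in testosterone fetuses and from 20930 to 36489 in controls, and no gene of the list was at 0 in any library. The mean centred log2 level of that list was 0.37, -0.48 and -0.63 in testosterone fetuses 1, 2 and 3 and 0.43, 0.96 and -0.65 in control fetuses 1, 2 and 3. For the 4 members it was -0.45, -0.27 and 0.68 in testosterone fetuses and -0.26, -0.69 and 0.99 in controls. The part of the germ cell makeup of a library in the members' values was not tested.

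**Figure D3:**
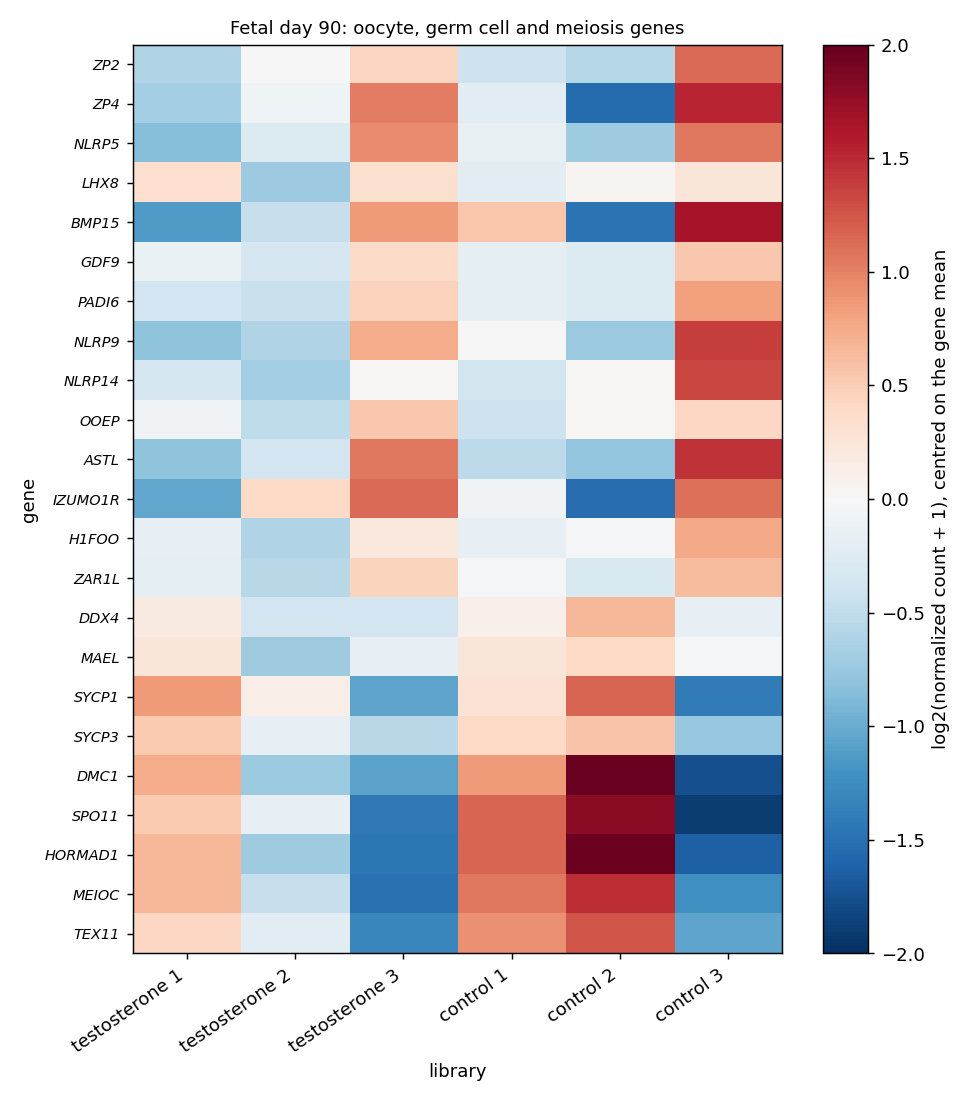
Log2(normalized count + 1) in each fetal library (columns), centred on each gene's mean over the 6 libraries (colour), for the 4 members and genes of the oocyte, germ cell and meiosis lists (rows), which were picked for display after their values were seen. ZP2, ZP4 and NLRP5 are highest in control 3 and next highest in testosterone 3, where SYCP1, DMC1, SPO11, HORMAD1, MEIOC and TEX11 are lowest.

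No list around the members held a gene past the limma threshold in the fetal ovary. All 4 listed genes of the subcortical maternal complex and lattice list, out of 12 in the list, had a log2 change below 0, with a median of -0.34 against -0.02 over all 16513 genes. The smallest p among them was that of NLRP14, at a log2 change of -0.66 (SE 0.40, limma adjusted p = 0.623); without control 3, which had 3610 of its normalized counts, the other 5 libraries lay between 879 and 1450. All 7 listed early oocyte factors were below 0 (median -0.40), led by TAF4B, a germ cell transcription cofactor, with a log2 change of -0.55 (SE 0.18, limma adjusted p = 0.397). Of the 6 oocyte-secreted factors and receptors, 3 were above and 3 below 0, with a median of -0.01. Of the 27 germ cell and meiosis genes, 26 were below 0 (median -0.46), 4 had an unadjusted limma p under 0.05 and none was called. The smallest p was that of MOV10L1, a piRNA-pathway helicase, at -0.46 (SE 0.13, limma adjusted p = 0.338). Over all 16513 genes, 8818 were below 0 and 1611 had an unadjusted limma p under 0.05. Control 2 was the highest library for 22 of these 27 genes and for 6 of the 7 early oocyte factors. DDX4 and MAEL belong to both lists, so the counts of these lists are not separate. The part of control 2 in the shared signs was not tested.

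In the list of maternal-effect, egg activation and zona processing genes, 12 were listed out of 23, and 2 of them were called by DESeq2, which called 1.58% of all genes, but not by limma. CD9, the egg membrane tetraspanin used in fusion with sperm and expressed by many other cells, averaged 759 ± 120 normalized counts after testosterone and 461 ± 43.3 in controls (SD, n = 3 each), with a log2 change of 0.71 (SE 0.15, limma adjusted p = 0.237) and a DESeq2 adjusted p of 0.0039. ZPBP, known from sperm as a zona-binding protein, averaged 50.2 ± 8.34 normalized counts after testosterone and 108 ± 19.8 in controls (SD, n = 3 each), with a log2 change of -1.09 (SE 0.25, limma adjusted p = 0.279) and a DESeq2 adjusted p of 0.0362.

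To set the members against the germ cells of the same library, each was divided by DDX4. ZP4 per DDX4 was 1.002, 2.26 and 4.84 in testosterone fetuses 1, 2 and 3, against 1.46, 0.395 and 5.88 in control fetuses 1, 2 and 3. LHX8 per DDX4 was 1.16, 0.815 and 1.69 in testosterone fetuses, against 0.830, 0.677 and 1.38 in controls, a smaller range than for ZP4. On the ratio scale library 3 was the highest of its group for both genes, whereas on normalized counts testosterone 1 was above testosterone 3 for LHX8. DDX4 itself had a fetal log2 change of -0.40 (SE 0.23, limma adjusted p = 0.606), and as the shared divisor it enters every ratio. The mean log2 ratios differed between groups by 0.29 for ZP2, 0.56 for ZP4, 0.27 for NLRP5 and 0.34 for LHX8, testosterone minus control. Two-sided exact permutation tests gave p = 0.9, 0.8, 0.7 and 0.5 for these genes in that order, each 0.9 after Benjamini-Hochberg adjustment over the 4 tests, where 3 against 3 libraries cannot go below 0.1.

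By the likeness rule, the 5 named genes whose fetal pattern was most like the mean of the standardized members, over 6 libraries and 12581 named genes, were SND1, TUBA1C, FAM110A, TBC1D25 and TIMM9, with Pearson r of 0.998, 0.997, 0.995, 0.992 and 0.991. SND1 had 7167, 6983 and 8502 normalized counts in testosterone fetuses 1, 2 and 3, against 7183, 6942 and 8832 in control fetuses 1, 2 and 3. The members' own r with that mean was 0.95 for NLRP5, 0.93 for ZP4, 0.92 for ZP2 and 0.50 for LHX8, the lowest. Each member is part of that mean, which raises its own r, so these values do not measure how far a member shares a pattern. With 6 libraries that also share depth and preparation, these r describe the order of libraries only.

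In the adult ovary the same 4 genes were again detected in every library, and again none was called. The authors deposited 2 adult tables that share controls 4 and 6 and testosterone 5 and 6, so the tables are not independent. Values below come from the 8 libraries set on 1 scale through the recovered reads, and tests are given for both tables and for the joined libraries.

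ZP2 had 57.3, 312, 334 and 134 normalized counts in testosterone adults 4, 5, 6 and 7, against 111, 239.5, 122 and 424 in control adults 4, 5, 6 and 7. Testosterone 4 was the lowest and control 7 the highest, and the groups overlapped. The means were 209 ± 135 after testosterone and 224 ± 145 in controls (SD, n = 4 each). The limma log2 change was 0.31 in the first table (SE 0.74, 95% interval -1.45 to 2.06), 0.43 in the second (SE 0.64, -1.08 to 1.94) and -0.19 over the 8 libraries (SE 0.65, -1.66 to 1.27).

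ZP4 had 53.2, 302, 214 and 24.95 normalized counts in testosterone adults 4, 5, 6 and 7, against 88.6, 283, 128 and 361 in control adults 4, 5, 6 and 7. Testosterone 4 and 7 lay below all 4 controls, and testosterone 5 and 6 lay among them. The means were 149 ± 132 after testosterone and 215 ± 128 in controls (SD, n = 4 each). Over the 8 libraries the log2 change was -0.92 (SE 0.82, 95% interval -2.78 to 0.93), against 0.03 in the first table and -0.43 in the second. Without testosterone 7 the joined value was -0.29, and without testosterone 4 it was -0.64.

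NLRP5 had 29.7, 119, 80.2 and 34.0 normalized counts in testosterone adults 4, 5, 6 and 7, against 82.7, 77.1, 43.7 and 123 in control adults 4, 5, 6 and 7. The same pair, testosterone 4 and 7, lay below every control. The means were 65.7 ± 42.2 after testosterone and 81.6 ± 32.4 in controls (SD, n = 4 each), and the joined log2 change was -0.45 (SE 0.54, 95% interval -1.68 to 0.78).

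LHX8 rested on few reads, with 11.3, 28.8, 67.1 and 11.3 normalized counts in testosterone adults 4, 5, 6 and 7, against 13.0, 34.96, 34.8 and 52.5 in control adults 4, 5, 6 and 7. Testosterone 7 rested on 10 reads, for which the exact Poisson 95% interval is 4.80 to 18.4 reads, an interval that covers counting error only. Testosterone 4 and 7 again lay below every control, here by little below control 4, and testosterone 6 was the highest. The means were 29.6 ± 26.3 after testosterone and 33.8 ± 16.2 in controls (SD, n = 4 each), and the joined log2 change was -0.41 (SE 0.70, 95% interval -1.99 to 1.16).

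**Figure D4:**
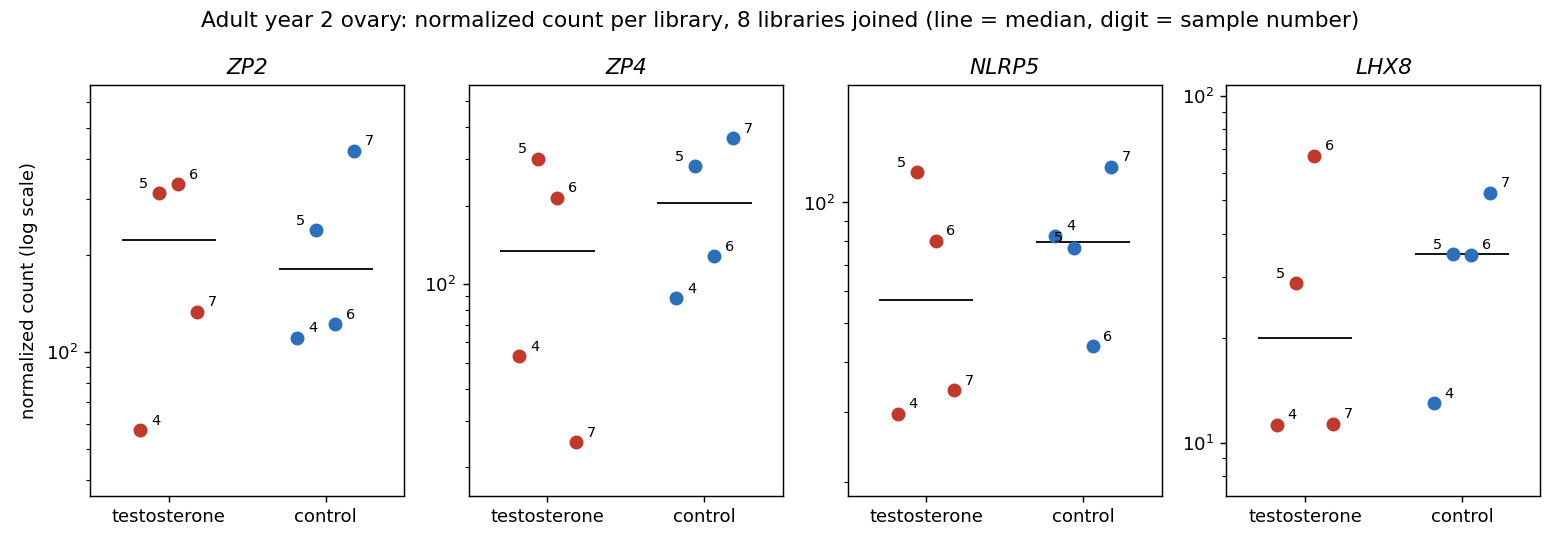
Normalized counts (y axis, log scale) of ZP2, ZP4, NLRP5 and LHX8 in the 4 testosterone and 4 control adult ovaries, 1 point per library numbered by sample, with a line at each group's median. Testosterone 4 and 7 are the lowest of the testosterone libraries in every panel, and the groups overlap in each.

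Adult limma adjusted p-values of the 4 genes ran from 0.9998 to 0.9999, and none had an unadjusted p under 0.05. Over all genes limma called 0.00631% in the first adult table, 0.00623% in the second and 0.0127% over the 8 joined libraries. DESeq2 called 0.0257%, 0.0318% and 0.0453% of genes in the same sets and edgeR 0.0%, 0.0% and 0.00635%, without any of the 4 members. In the authors' deposited tables the adult log2 fold changes were 0.58 and 0.26 for ZP2, 0.18 and -0.083 for ZP4, 0.16 and -0.083 for NLRP5 and 0.38 and 0.10 for LHX8 in the first and the second table. The 95% intervals reach past 1 on the log2 scale on at least 1 side for each gene in each adult table, so differences of 2-fold lie inside the intervals at this spread and these group sizes.

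Markers of other cell types also differed between the adult libraries that were low and high for the members. The mean centred log2 level of the 4 members was -1.30, 0.73, 0.80 and -1.22 in testosterone adults 4, 5, 6 and 7, and -0.48, 0.53, -0.20 and 1.13 in control adults 4, 5, 6 and 7. For the granulosa list, of which 11 of 15 genes were listed, it was -0.32, 0.25, 0.62 and -1.04 in testosterone adults and -1.63, 1.03, -0.15 and 1.24 in controls. HSD17B1, an estrogen-forming enzyme of granulosa cells chosen after its values were seen, had 46.0, 785, 1461 and 42.0 normalized counts in testosterone adults 4, 5, 6 and 7, against 64.9, 2460, 46.2 and 4117 in control adults 4, 5, 6 and 7. The granulosa list as a whole differed far less. Its summed normalized counts were 20780, 23958, 28488 and 14446 in testosterone adults, against 30295.5, 37094, 25166 and 38230 in controls, in the same order. Luteal and macrophage genes ran the other way from the members in several libraries. For the 8 listed luteal genes the mean centred log2 level was 2.37, -1.83, -0.97 and 2.05 in testosterone adults 4, 5, 6 and 7, and -1.30, -1.23, 2.59 and -1.68 in control adults 4, 5, 6 and 7. For the 7 macrophage genes it was 1.74, -1.17, -0.95 and 1.91 in testosterone adults and -0.15, -1.04, 1.83 and -2.17 in controls. The libraries with high OXT, testosterone 4 and 7 and control 6, were among those with low ZP2, ZP4 and NLRP5, while control 4 was also low for ZP2 and ZP4 with 69.7 normalized counts of OXT. For the 8 listed luteal genes, summed normalized counts ran from 14691 to 404536 in testosterone adults and from 15838 to 478232 in controls, with no luteal or granulosa gene at 0. The part of luteal tissue, macrophages and granulosa cells in the members' values was not tested.

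**Figure D5:**
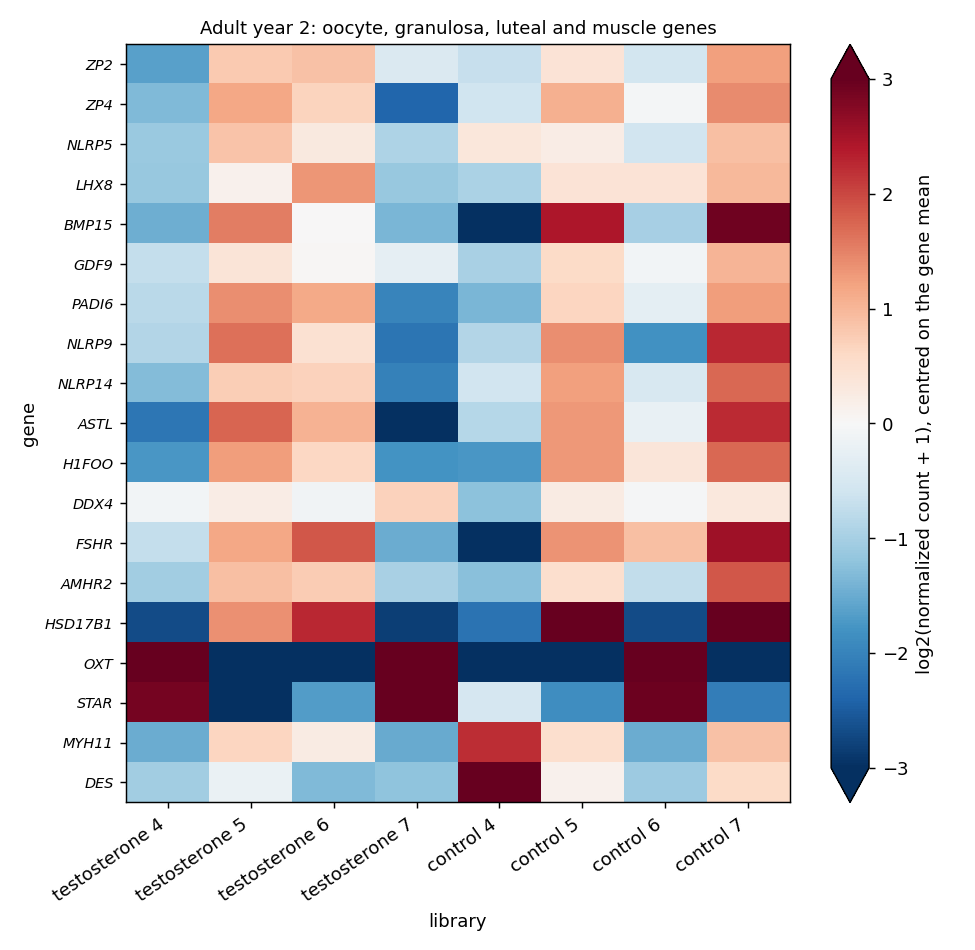
Log2(normalized count + 1) in each adult library (columns), centred on each gene's mean over the 8 libraries (colour; values beyond the ends of the scale take the end colour), for the 4 members and genes of the oocyte, granulosa, luteal and smooth muscle lists (rows), which were picked for display after their values were seen. Testosterone 4 and 7 are below the mean for all 4 members and for HSD17B1 and high for OXT and STAR, and control 7 is high for the members and for HSD17B1. Controls 4 and 6 are also below the mean for HSD17B1, and control 6 is also high for OXT.

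DDX4 did not follow the members in the adult libraries. It had 49.1, 60.3, 47.6 and 83.9 normalized counts in testosterone adults 4, 5, 6 and 7, against 21.3, 61.7, 50.2 and 64.0 in control adults 4, 5, 6 and 7. Testosterone 7, where ZP4 was lowest, was the library with the most DDX4. ZP4 per DDX4 was accordingly 0.306 in testosterone 7 and 1.08 in testosterone 4, against 2.52 to 5.57 in controls, with 4.93 and 4.44 in testosterone 5 and 6. The log2 ratio averaged 0.71 ± 1.90 after testosterone and 2.00 ± 0.48 in controls (SD, n = 4 each). Mean differences in log2 ratio were -0.56 for ZP2, -1.29 for ZP4, -0.81 for NLRP5 and -0.77 for LHX8, testosterone minus control, with two-sided exact permutation p of 0.457, 0.286, 0.286 and 0.314 in that order. Adjusted over the 4 tests the p ran from 0.419 to 0.457, where 4 against 4 libraries can reach 0.0286.

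The balance between the zona transcripts also differed between libraries. As a share of the reads of ZP2 and ZP4 together, which is not corrected for transcript length and is compared only between libraries, ZP2 took 38.8%, 39.0% and 28.5% in testosterone fetuses 1, 2 and 3, against 34.6%, 54.0% and 31.5% in control fetuses 1, 2 and 3. It took 51.9%, 50.8%, 60.9% and 84.3% in testosterone adults 4, 5, 6 and 7, against 55.6%, 45.9%, 48.9% and 54.0% in control adults 4, 5, 6 and 7. Testosterone adult 7 had the highest share, with 118 ZP2 reads and 22 ZP4 reads (exact Clopper-Pearson 95% interval 77.2% to 89.9%). Its gap to the next testosterone adult was 0.70 of that group's range, which is below Dixon's 95% critical value for 4 samples. The groups overlapped at both ages.

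The effect of testosterone was also compared between ages by the difference of the log2 changes, first adult table minus fetal table. The difference was 0.41 for ZP2 (SE 0.95, 95% interval -1.67 to 2.496), -0.14 for ZP4 (SE 1.17, -2.72 to 2.44), 0.12 for NLRP5 (SE 0.86) and 0.22 for LHX8 (SE 0.82). No member passed limma (adjusted p = 0.998 for each), where 0.00657% of all genes did.

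Levels were far lower in the adult than in the fetal ovary for all 4 genes, as CPM, the reads of a gene scaled to a common library total. The tables were normalized separately and ages differ in libraries, so this is a description with no test, and all fetal libraries lay above all adult libraries for 20.8% of the 15175 genes ranked. ZP2 ran from 114 to 376 CPM over the 6 fetal libraries (median 152) and from 2.10 to 17.9 over the 8 adult libraries (median 7.34), a fetal-over-adult fold of medians of 20.7. ZP4 ran from 104 to 817 in fetuses (median 260) and from 0.944 to 15.2 in adults (median 6.61), a fold of 39.4. These zona genes had the smallest and the second largest fold of the 4.

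NLRP5 ran from 61.7 to 229 CPM in fetuses (median 96.7) and from 1.09 to 5.18 in adults (median 2.79), a fetal-over-adult fold of 34.6. LHX8 ran from 97.4 to 207 in fetuses (median 185) and from 0.391 to 2.66 in adults (median 1.24), a fold of 150. By this fold LHX8 stood at place 6 of 15175 genes, ZP4 at 80, NLRP5 at 90 and ZP2 at 166. Only genes listed in the fetal and in both adult tables were ranked, so genes too low in adults to be listed are missing. Of the germ cell and meiosis list, 27 genes were listed in fetuses and 12 in the joined adult libraries. The places may thus look more extreme than they would among all fetal genes. DDX4 had a fold of 71.2, at place 32, so the adult level was lower by more than that of DDX4 for LHX8 and by less for the other 3 genes. For no member did a fetal library fall within the adult range.

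Over all 14 libraries the order of the 4 groups by mean CPM was the same for all 4 genes, with control fetuses highest, then testosterone fetuses, control adults and testosterone adults. ZP2 averaged 171 ± 56.9 in testosterone fetuses and 210 ± 144 in control fetuses (SD, n = 3 each), and 8.30 ± 5.58 in testosterone adults and 8.85 ± 6.62 in control adults (SD, n = 4 each). NLRP5 averaged 121 ± 77.7 in testosterone fetuses and 134 ± 83.6 in control fetuses, and 2.61 ± 1.79 in testosterone adults and 3.10 ± 1.52 in control adults. ZP4 averaged 340 ± 204 in testosterone fetuses and 390 ± 377 in control fetuses, and 5.95 ± 5.45 in testosterone adults and 8.4998 ± 5.83 in control adults. LHX8 averaged 168 ± 61.2 in testosterone fetuses and 171 ± 25.4 in control fetuses, and 1.17 ± 1.05 in testosterone adults and 1.32 ± 0.747 in control adults. Within each age the neighbouring groups did not differ beyond their spread, and the step between ages was larger than that spread for each gene. The order within an age depended on the libraries and the scale: in the first adult table alone the mean was higher in testosterone than in control adults for all 4 genes, for ZP2 at 9.38 against 5.76 CPM, and fetal LHX8 was higher after testosterone on normalized counts.

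Over the 8 adult libraries and 12133 named genes, the 5 genes most like the mean of the standardized members were POLDIP3, SLC27A1, UBE3D, SNRPN and CAVIN4, with Pearson r of 0.992, 0.988, 0.985, 0.982 and 0.974. CAVIN4 had 10.2, 90.0, 89.5 and 12.5 normalized counts in testosterone adults 4, 5, 6 and 7, against 27.2, 102, 21.1 and 119 in control adults 4, 5, 6 and 7. The members' own r was 0.95 for ZP4, 0.94 for ZP2, 0.90 for NLRP5 and 0.89 for LHX8, again raised by each member being part of the mean. None of the 5 genes was among the 5 named for the fetal ovary. Sets of 5 out of 12133 named genes would rarely overlap, so this says nothing about a difference between ages.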

How the data were processed

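RNA from whole ovaries of 14 sheep was sequenced as paired reads. Per the submitters' processing notes, Trimmomatic 0.36 and STAR 2.5.2b were used. The counter was not given in the sources used here, nor were the genome build and annotation. Each of the 3 tables the authors deposited has a signal column per library (DESeq2 normalized counts, reads divided by a size factor), log2 fold changes and p-values. In every library 100% of values were whole multiples of 1 step within 0.01, so reads were recovered by multiplying by the size factor.

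Testing used limma 3.58.1 with a mean-variance trend in R 4.3.3 on log2(value + 1), which understates changes of low genes, within each table, keeping genes that averaged 10 or more, with Benjamini-Hochberg adjustment over all genes and a threshold of 0.05. edgeR 4.0.16 and DESeq2 1.42.0 were run on the recovered reads. The scripts were tested on simulated data. For adult control 6 the second adult table was deeper (33.4 M reads against 26.4 M), and the deeper set was used in the joined 8 libraries, whose fit was limited to genes in both tables.

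The members and gene lists were chosen with earlier results of these data known. The named list genes are those past the threshold or, where none passed, up to 3 of smallest p, with DDX4, the markers OXT, STAR and MYH11 and the 5 genes most like the members; the text says of any other gene that it was picked with its values known. CPM values were computed from the recovered reads. Count and share intervals cover counting error only. Alternatives were other pseudocounts (0.5 and 5), no filter, quantile normalization, the other tools, the sample number as a block and leaving out each library.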

Additional observations from a re-analysis of the deposited data

How the results depend on the processing

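The number of members called stayed at 0 under every alternative run, including each left-out library, and the smallest adjusted p of a member over these fits was 0.463. What changed was the sign of several log2 changes and, where libraries were joined or left out, also their size. In fetuses edgeR and DESeq2 gave -0.17 and -0.18 for ZP4 and 0.015 and 0.012 for LHX8. In the first adult table NLRP5 was 0.011 with a pseudocount of 5, 0.012 after quantile normalization and 0.16 with edgeR and with DESeq2. Joining the 8 adult libraries gave -0.19 for ZP2, -0.92 for ZP4 and -0.41 for LHX8 with limma, -0.11, -0.55 and -0.20 with edgeR and -0.099, -0.53 and -0.19 with DESeq2, the last added after the data were seen. In the second adult table LHX8 was 0.088 with edgeR and 0.10 with DESeq2. The difference between ages for NLRP5 was -0.019 with the second adult table. The cause was not tested.

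Leaving out 1 library gave fetal log2 changes from -0.41 to 0.44 for ZP2, -0.56 to 0.97 for ZP4, -0.63 to 0.37 for NLRP5 and -0.24 to 0.30 for LHX8. First-table adult values ran from -0.13 to 1.13 for ZP2, -0.46 to 0.77 for ZP4, -0.42 to 0.56 for NLRP5 and -0.45 to 0.79 for LHX8, joined values (also added after the data were seen) from -0.52 to 0.32, -1.47 to -0.29, -0.81 to -0.15 and -0.92 to -0.099, and second-table values from 0.081 to 1.04, -1.11 to 0.67, -0.54 to 0.36 and -0.64 to 0.60 for the same genes. The difference between ages ran from -0.13 to 1.24, -0.94 to 0.60, -0.37 to 0.68 and -0.40 to 0.84. Log2 ratios to DDX4 ran in fetuses from -0.25 to 1.02, -0.40 to 1.55, -0.35 to 0.95 and 0.079 to 0.64, and in adults from -0.98 to -0.13, -1.81 to -0.48, -1.16 to -0.41 and -1.39 to -0.29.

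Whether the sample numbers pair the fetal samples is not stated. Deviations of same-numbered samples correlated at 0.13, 0.0093 and 0.40, and testosterone 1 correlated best with control 2. Deviations within a group of 3 are tied to each other, so these correlations cannot decide on pairing. With the number as a replicate block, limma called 10 fetal genes, against 3 without it, and 0 members in any comparison. The second adult table then gave -0.11 for ZP2. That value rests on numbers 6 and 7 only, since control 4 and testosterone 5 have no same-numbered partner there. DAZL as a second germ cell gene was not run, since it was not listed by name. Adult LHX8 rests on 10 to 72 reads per library.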

Other observations

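Other oocyte genes were also lower in the adult than in the fetal ovary, by amounts that differed between genes; these were chosen after their values were seen and are given as means in CPM with no test. GDF9, the oocyte growth factor that acts on granulosa cells, averaged 93.9 ± 24.2 in testosterone fetuses and 101.1 ± 30.6 in control fetuses (SD, n = 3 each), and 4.94 ± 1.82 in testosterone adults and 6.54 ± 4.09 in control adults (SD, n = 4 each). PADI6 averaged 551 ± 201 in testosterone fetuses and 680 ± 290 in control fetuses, and 8.45 ± 7.30 in testosterone adults and 7.77 ± 5.95 in control adults. BMP15 averaged 3.04 ± 2.17 in testosterone fetuses and 5.16 ± 4.31 in control fetuses, and 0.353 ± 0.414 in testosterone adults and 1.14 ± 1.30 in control adults, with 0 reads in control adult 4. ZAR1L, a relative of ZAR1 that was listed, averaged 23.4 ± 8.28 in testosterone fetuses and 27.3 ± 8.77 in control fetuses, and 10.5 ± 3.02 in testosterone adults and 9.44 ± 6.24 in control adults.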
